A study of Mus musculus with 11 samples.

Results

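Genes whose level was lower in every withdrawn mouse than in every naïve mouse were collected from RNA sequencing of sorted neurons of the medial prefrontal cortex (mPFC). A gene entered the set when its mean over the naïve mice was at least 2 CPM (counts scaled to the total on genes of each library) and its highest CPM in a withdrawn mouse was below its lowest CPM in a naïve mouse. The gene Mas1, which also met both conditions, was left out by definition and had 72.5 ± 13.1 CPM in naïve (SD, n = 6) against 29.1 ± 6.42 CPM in withdrawn mice (SD, n = 5). The set held 33 genes of the 53465 genes counted and of the 13474 genes with a naïve mean of at least 2 CPM. With Mas1, 0.252% of those 13474 genes were lower in every withdrawn mouse, and 70 genes (0.52%) were higher in every withdrawn mouse. How many genes would separate under other splits of the same mice was not counted, so neither share is read as an effect of withdrawal.

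The cells were mPFC CRF1+ neurons, which express the type 1 receptor for the stress peptide corticotropin-releasing factor, and came from adult male CRF1:GFP mice, a reporter line in which a green fluorescent protein marks the cells that express this receptor. Each library held the cells sorted by fluorescence from 1 animal, and n is the number of mice. The 5 withdrawn mice had 5 to 6 weeks of intermittent exposure to ethanol vapor, together with ethanol injections and pyrazole, an inhibitor of alcohol dehydrogenase, and were 5 to 8 days into forced abstinence. The 6 naïve mice breathed air and also received pyrazole, so that pyrazole was common to both groups. The comparison asked which transcripts of these neurons differ after withdrawal from chronic ethanol. For withdrawn mice 3, 4 and 5 another label of the deposit reads control, and the design text gives the group sizes as 5 control and 6 ethanol mice, so values without these 3 mice are given where a result rests on them. In sorted bulk cells, a smaller share of cells that express a gene and less RNA of that gene per cell cannot be told apart.

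Naïve mice had 9970161 to 17855514 counts on genes and withdrawn mice 7351567 to 22244869, and 3 counts in a library equal 0.135 to 0.408 CPM, a floor that covers counting error only. The summed level of 10 glutamatergic neuron markers was 8336 to 10339 CPM in naïve and 5796 to 9031 CPM in withdrawn mice. Of these markers 9 of the 10 had a log2 fold change below 0, as had 54.5% of all genes with a naïve mean of at least 2 CPM. The summed level of 10 fibroblast markers was 0.0637 to 74.0 CPM in naïve and 23.0 to 1375 CPM in withdrawn mice, none of these markers was at 0 in all naïve mice, and all 7 that passed the filter on low counts had a log2 fold change above 0. The mean log2 CPM of the fibroblast markers was -0.28 ± 1.52 in naïve (SD, n = 6) against 2.47 ± 1.72 in withdrawn mice (SD, n = 5). An exact two-sided permutation test of this difference gave p = 0.0260, and 0.390 after Benjamini-Hochberg adjustment over 15 library measures. The mean log2 CPM of the glutamatergic neuron markers was 8.03 ± 0.24 in naïve (SD, n = 6) against 7.81 ± 0.37 in withdrawn mice (SD, n = 5). The same permutation test gave p = 0.249 for them, and 0.884 after adjustment. Withdrawn mice 4 and 2 had the fewest counts and the largest shares of tallied reads that fell on no annotated feature (48.1% and 39.6%, against 5.77% to 31.5% in naïve mice). Markers of other cell types also varied widely within both groups. The summed level of 8 endothelial markers was 2.99 to 766 CPM in naïve and 40.1 to 720 CPM in withdrawn mice. That of 8 GABAergic neuron markers was 80.1 to 867 and 30.9 to 750 CPM, and that of 8 astrocyte markers 297 to 529 and 264 to 750 CPM. The part of cell content and of these library differences in the levels below was not tested.

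In a cortical neuron, glutamate is sensed by AMPA receptors whose gating is set by auxiliary proteins, and the shape of dendrites and axons depends on the actin cytoskeleton and on guidance receptors. Mitochondria keep their own ribosomes, and the proteins of those ribosomes are encoded in the nucleus, so that transcripts of neuronal signalling and of the mitochondrial and nuclear machinery are counted side by side in sorted cells. Many genes for such machinery start back to back with a neighbour on the other strand, a layout in which a short stretch of DNA lies between both starts.

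Of the 33 genes, 32 had an entry in the GENCODE M21 annotation of the mouse assembly GRCm38, and 29 of these 32 were protein coding (90.6%, against 91.1% of all annotated genes with a naïve mean of at least 2 CPM). Among the protein-coding genes, 13 of 29 (44.8%) had a protein-coding gene on the other strand whose start lay within 1000 bases of their own start, against 1940 of 12262 (15.8%) among all protein-coding genes at that level. This count was made after the set was known and is given as a description. In the pairs of Mrpl13 with Mtbp, Coq6 with Fam161b, Timm10b with Arfip2 and Rnaseh2a with Prdx2 the genes overlap at their starts. No stretch lies between the genes of those pairs. RefSeq promoter sequences for GRCm38.p6 held the complete stretch between both starts for 6 of the 13 pairs. It is shown here because it is the DNA that each of these 6 pairs has in common. Each is written 5′ to 3′ on the strand of the gene from the set, with capitals for a GC box (GGGCGG) or a CCAAT box (CCAAT) on either strand.

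Mrpl30 to Mitd1 (chr1:37890412-37890476, plus strand): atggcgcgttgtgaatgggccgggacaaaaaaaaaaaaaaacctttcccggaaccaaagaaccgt
Txndc9 to Eif5b (chr1:37997894-37998009, minus strand): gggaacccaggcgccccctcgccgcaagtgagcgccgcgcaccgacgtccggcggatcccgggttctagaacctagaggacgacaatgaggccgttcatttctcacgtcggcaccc
Ciao1 to Tmem127 (chr2:127247817-127247907, minus strand): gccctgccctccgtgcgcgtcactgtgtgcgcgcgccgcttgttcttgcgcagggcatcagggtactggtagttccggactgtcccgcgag
Taf6 to Cnpy4 (chr5:138187452-138187484, minus strand): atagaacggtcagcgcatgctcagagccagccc
Qrsl1 to Rtn4ip1 (chr10:43901746-43901806, minus strand): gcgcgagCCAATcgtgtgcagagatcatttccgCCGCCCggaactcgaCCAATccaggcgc
Nop14 to Grk4 (chr5:34660149-34660378, minus strand): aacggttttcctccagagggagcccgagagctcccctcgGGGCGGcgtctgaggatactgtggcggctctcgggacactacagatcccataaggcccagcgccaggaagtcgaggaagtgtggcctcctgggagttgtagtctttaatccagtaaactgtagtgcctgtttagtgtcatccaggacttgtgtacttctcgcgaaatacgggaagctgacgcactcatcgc

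No exon of any annotated gene lies in these 6 stretches, which are 33 to 230 bases long. Of 7 motifs searched on both strands, 2 were found in the stretch of Qrsl1 (GC box and CCAAT), 1 in that of Nop14 (GC box), and none in those of Mrpl30, Txndc9, Ciao1 and Taf6. For the neuronal genes Cnih2 and Unc5a, which have no such neighbour, the 250 bases before the start are shown with the same capitals.

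Cnih2 (chr19:5098522-5098771, minus strand): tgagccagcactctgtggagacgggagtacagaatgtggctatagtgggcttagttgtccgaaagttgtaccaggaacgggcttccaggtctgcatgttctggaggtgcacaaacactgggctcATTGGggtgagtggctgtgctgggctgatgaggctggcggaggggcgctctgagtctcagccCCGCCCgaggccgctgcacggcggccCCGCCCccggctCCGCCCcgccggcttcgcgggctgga
Unc5a (chr13:54949161-54949410, plus strand): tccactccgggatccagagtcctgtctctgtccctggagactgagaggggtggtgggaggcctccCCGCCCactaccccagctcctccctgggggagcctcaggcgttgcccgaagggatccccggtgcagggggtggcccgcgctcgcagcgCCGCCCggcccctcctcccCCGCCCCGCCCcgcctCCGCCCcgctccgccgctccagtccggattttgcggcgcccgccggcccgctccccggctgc

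The window of Cnih2 held 3 GC boxes and 1 CCAAT box, and that of Unc5a held 5 GC boxes. A RefSeq promoter window, which runs from 250 bases before to 50 bases after the start, was available for 21 of the 33 genes. A GC box was present in 15 of these 21 windows (71.4%), against 65.0% of 10046 windows of genes with a naïve mean of at least 2 CPM and 35.9% of all 27025 windows. The CCAAT box was present in 9 (42.9%, against 38.6% and 37.9%), the ETS motif CCGGAAGT in 2 (9.52%, against 8.44% and 4.00%), the E-box CACGTG in 1, Txndc9 (4.76%, against 10.3% and 7.24%), and the TATA motif TATAAA in 1, Taf6 (4.76%, against 6.74% and 14.2%). The cAMP response element TGACGTCA and the NRF1 motif were in none of the 21 windows, and were in 3.39% and 2.12% of the windows of genes at that level and in 1.88% and 0.977% of all windows. The median GC content was 58.7% in the 21 windows, 61.3% at that level and 52.7% over all windows.

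Mean levels in naïve mice were lowest for Gm26803 (2.08 CPM), with 10 genes above 100 CPM, 26 at or above 10 CPM and 7 below 10 CPM. The withdrawn mean was lower than the naïve mean by up to 90.1%, with a median of 36.1%. Summed over the 32 genes described below, naïve mice had 2134 to 2750.2 CPM and withdrawn mice 1447 to 1746 CPM. The log2 fold change (withdrawn over naïve) from edgeR, after normalization by the trimmed mean of M-values (TMM), had a median of -0.71 and ran from -0.42 (Ccdc92) to -3.32 (Ecel1). It was beyond -0.6 for 25 of the 33 genes and beyond -1 for 9, and its median was -0.04 over all genes with a naïve mean of at least 2 CPM, of which 54.5% lay below 0. Since the CPM of the same mice chose the genes, these differences are a description. The values on the log2 scale given below for single genes are this edgeR fold change. They are not the log2 of the ratio of the CPM means printed beside them.

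edgeR's quasi-likelihood test covered 17093 genes, all 33 of the set among them. With thresholds of 0.05 on the Benjamini-Hochberg adjusted p and of 0.6 on the size of the log2 fold change, it called 0 genes lower (0%) and 1 higher (0.00585%), and none of the 33 was called. At an unadjusted p under 0.05, 380 genes were lower (2.22%) and 854 higher (5%), and 30 of the 33 genes were among the 380. DESeq2's Wald test at the same thresholds called 20 genes lower (0.0915%) and 342 higher (1.57%), and 11 of the 33 genes were among the 20. The rule used the same contrast, so the choice of genes favours low p-values and nothing is read from these counts.

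**Figure D1:**
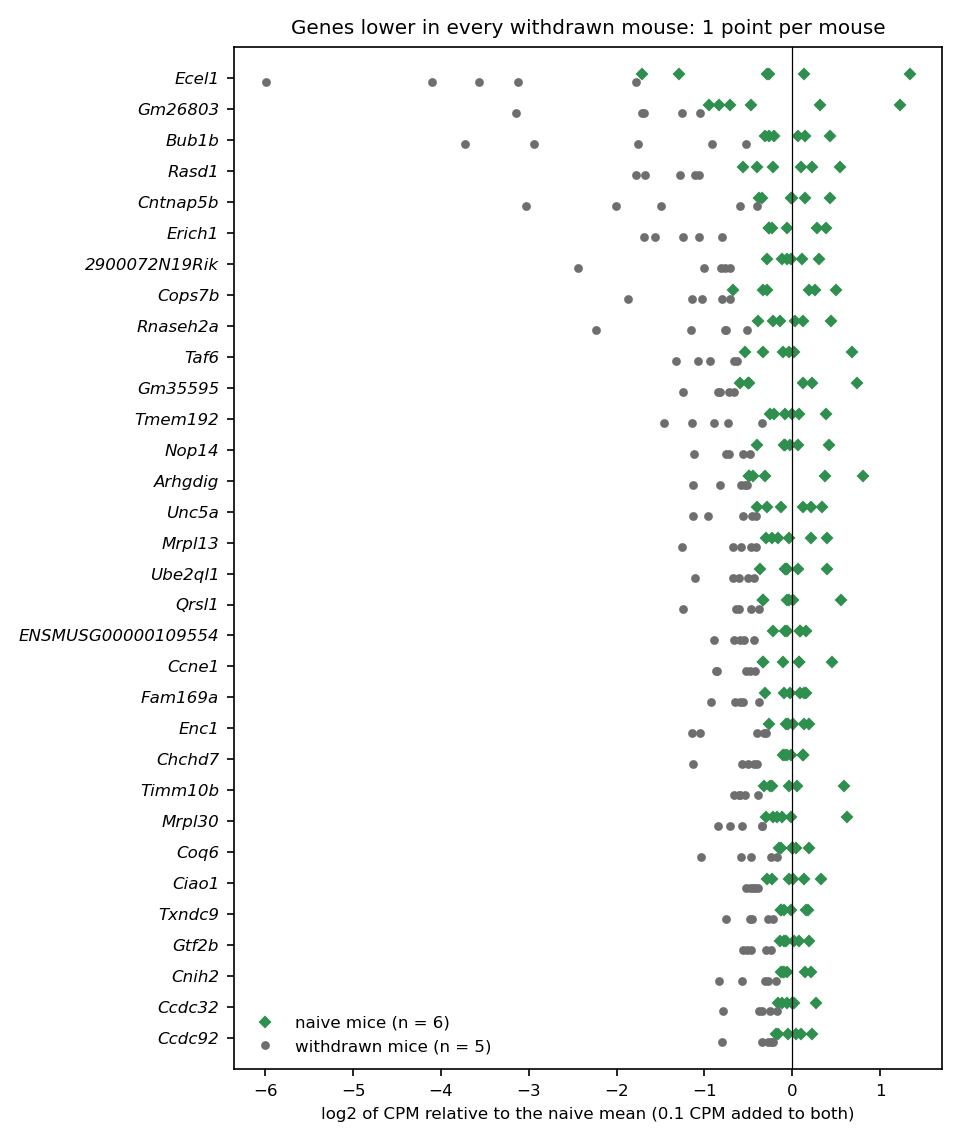
Level of each of 32 of the 33 genes in each mouse, as the log2 of its CPM over the mean of the naïve mice with 0.1 CPM added to both (horizontal axis), with 1 row per gene ordered by the edgeR log2 fold change. Green diamonds are the 6 naïve mice and grey circles the 5 withdrawn mice, which do not overlap in any row because the genes were chosen that way, and the space between the groups is narrow in most rows.

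**Figure D2:**
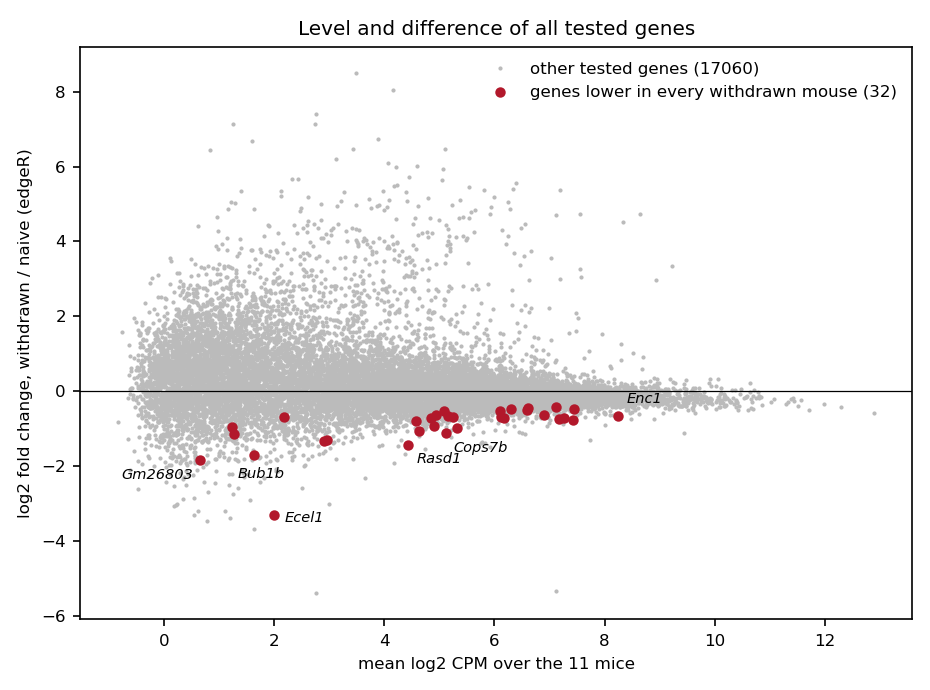
Mean log2 CPM over the 11 mice (horizontal axis) against the edgeR log2 fold change of withdrawn over naïve mice (vertical axis), with 1 point per gene tested. The 32 genes described here are in red and span levels from Gm26803 to Enc1, and many other genes in grey reach as low a fold change at the same level.

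Among the genes for signalling at synapses, Cnih2 (ENSMUSG00000024873, chr19:5092868-5098521, minus strand) encodes cornichon 2, an auxiliary protein of AMPA receptors that slows their closing. It had 176, 183 and 223 CPM as the lowest, median and highest naïve values, and 130.1, 159.9, 156, 108 and 170.1 CPM in withdrawn mice 1 to 5. Withdrawn mice 2, 3 and 5 lay just under the naïve range and withdrawn mouse 4 was the lowest. Its mean levels were 193 ± 20.2 CPM in naïve (SD, n = 6) against 145 ± 25.2 CPM in withdrawn mice (SD, n = 5), or -0.48 ± 0.17 (standard error) on the log2 scale.

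Unc5a (ENSMUSG00000025876, chr13:54949411-55006018, plus strand) encodes a receptor for the guidance cue netrin. Its naïve values were 129.9, 171 and 217 CPM (lowest, median, highest) and its withdrawn values 129, 117, 125, 88.1 and 78.1 CPM. Withdrawn mice 4 and 5 were clearly lower than the other withdrawn mice, and withdrawn mouse 1 was within 1 CPM of naïve mouse 2. By mean it had 172 ± 34.5 CPM in naïve (SD, n = 6) against 107 ± 22.95 CPM in withdrawn mice (SD, n = 5), or -0.74 ± 0.20 (standard error) on the log2 scale.

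Cntnap5b (ENSMUSG00000067028, chr1:99772765-100485942, plus strand), a member of the neurexin superfamily of cell adhesion proteins, was expressed at a low level. Naïve mice had 7.58, 9.86 and 13.3 CPM (lowest, median, highest), and withdrawn mice had 7.46, 3.45, 2.38, 6.53 and 1.12 CPM. The withdrawn mice spread widely, with mouse 5 lowest and mouse 1 next to the naïve range. It averaged 9.90 ± 2.14 CPM in naïve (SD, n = 6) against 4.19 ± 2.71 CPM in withdrawn mice (SD, n = 5), or -1.33 ± 0.53 (standard error) on the log2 scale.

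Ecel1 (ENSMUSG00000026247, chr1:87147655-87156521, minus strand) encodes an endopeptidase of the neprilysin family found mainly in neurons, and had the most negative fold change of the set. Naïve mice had 1.85, 5.17 and 15.99 CPM (lowest, median, highest), which came from 25 to 251 counts. Withdrawn mice 1 to 5 had 0.439, 0, 1.75, 0.272 and 0.632 CPM, which came from 6, 0, 39, 2 and 9 counts. Naïve mouse 5 alone was far above the rest, and withdrawn mouse 3 nearly reached naïve mouse 2. The group means were 6.27 ± 5.12 CPM in naïve (SD, n = 6) against 0.619 ± 0.675 CPM in withdrawn mice (SD, n = 5), or -3.32 ± 0.98 (standard error) on the log2 scale, a value that rests on few counts in withdrawn mice. The log2 fold change was -4.26 without withdrawn mouse 3, -2.73 without naïve mouse 5 and -4.81 without withdrawn mice 3, 4 and 5.

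Among the genes for the cytoskeleton and for signalling by small GTPases, Enc1 (ENSMUSG00000041773, chr13:97241105-97253034, plus strand) encodes an actin-binding protein of the kelch family that is abundant in the nervous system. Naïve mice had 296, 351 and 406 CPM (lowest, median, highest), and withdrawn mice 1 to 5 had 172, 161, 289.6, 269 and 285 CPM. The withdrawn mice fell apart into mice 1 and 2 at a low level and mice 3, 4 and 5, whose other label reads control, just under the naïve range. Its mean levels were 355 ± 39.4 CPM in naïve (SD, n = 6) against 235 ± 63.7 CPM in withdrawn mice (SD, n = 5), or -0.66 ± 0.19 (standard error) on the log2 scale over all mice and -1.22 without withdrawn mice 3, 4 and 5.

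Arhgdig (ENSMUSG00000073433, chr17:26199183-26207786, minus strand) encodes the gamma form of the inhibitors that hold small GTPases in their inactive state. It had 144, 157 and 356 CPM as lowest, median and highest naïve values and 136, 115, 140.0, 93.2 and 142 CPM in withdrawn mice. Naïve mice 5 and 1 were far above the other 4 naïve mice, which lay close to withdrawn mice 3 and 5. It averaged 203 ± 87.4 CPM in naïve (SD, n = 6) against 125 ± 20.8 CPM in withdrawn mice (SD, n = 5), or -0.77 ± 0.28 (standard error) on the log2 scale.

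Rasd1 (ENSMUSG00000049892, chr11:59963181-59964944, minus strand) encodes a Ras-like GTPase that glucocorticoids induce. Naïve mice had 19.7, 28.2 and 42.5 CPM (lowest, median, highest), and withdrawn mice 1 to 5 had 9.07, 13.5, 11.96, 8.43 and 13.8 CPM. All withdrawn mice lay together, well under the lowest naïve mouse, and the lowest naïve value was 1.42 times the highest withdrawn value. The group means were 29.1 ± 8.53 CPM in naïve (SD, n = 6) against 11.4 ± 2.49 CPM in withdrawn mice (SD, n = 5), or -1.42 ± 0.31 (standard error) on the log2 scale.

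Ube2ql1 (ENSMUSG00000052981, chr13:69702832-69739889, minus strand) encodes a protein like the enzymes that carry ubiquitin to its targets. Its naïve values were 141, 174 and 240.0 CPM (lowest, median, highest) and its withdrawn values 134, 114, 119, 84.2 and 128 CPM. Naïve mouse 1 was the highest and withdrawn mouse 4 the lowest, and naïve mouse 2 lay near withdrawn mouse 1. It averaged 182 ± 32.8 CPM in naïve (SD, n = 6) against 116 ± 19.5 CPM in withdrawn mice (SD, n = 5). The edgeR log2 fold change was -0.71 ± 0.19 (standard error).

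**Figure D3:**
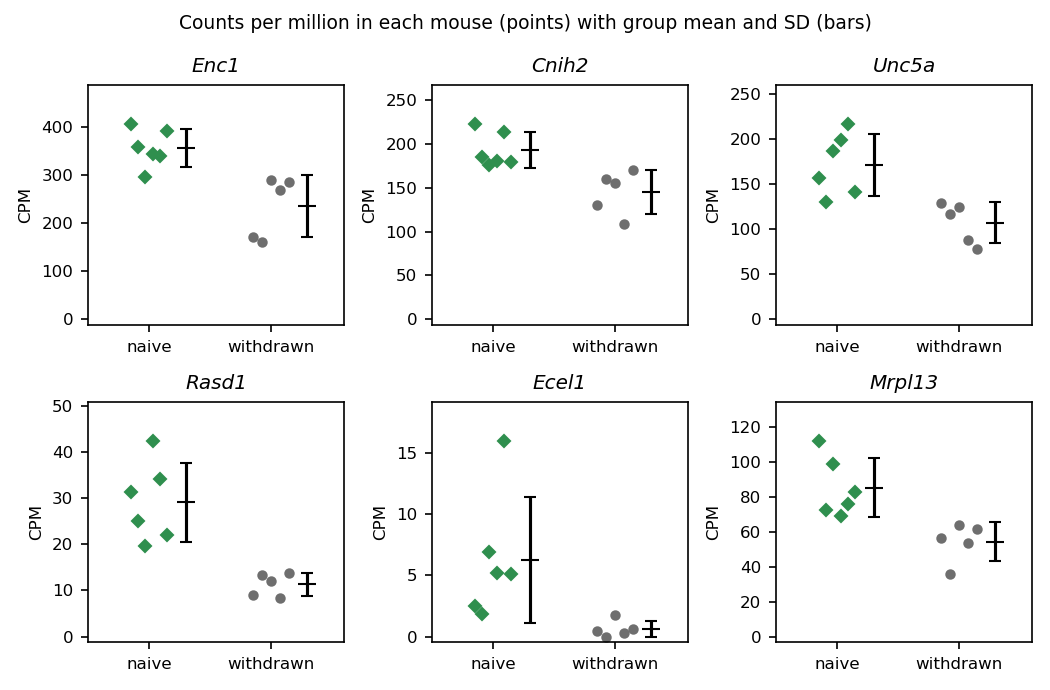
CPM (vertical axis, from 0) of Enc1, Cnih2, Unc5a, Rasd1, Ecel1 and Mrpl13 in each naïve mouse (green diamonds, n = 6) and withdrawn mouse (grey circles, n = 5), drawn from mouse 1 on the left to the last mouse on the right within each group, with the group mean and SD as black bars. The withdrawn mice of Rasd1 lie well below all naïve mice, those of Enc1 fall into a low pair and 3 mice next to the naïve range, and the naïve mice of Ecel1 differ widely among themselves.

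Among the genes for mitochondrial proteins, Mrpl30 (ENSMUSG00000026087, chr1:37890477-37898535, plus strand) and Mrpl13 (ENSMUSG00000022370, chr15:55534094-55557748, minus strand) encode proteins of the large subunit of the mitochondrial ribosome. For Mrpl30, naïve mice had 113, 125 and 213 CPM (lowest, median, highest) and withdrawn mice 93.1, 77.04, 84.8, 109 and 109 CPM. Naïve mouse 1 was far above the other naïve mice, and withdrawn mice 4 and 5 were close to the lowest naïve mouse. The averages were 138 ± 37.5 CPM in naïve (SD, n = 6) against 94.5 ± 14.2 CPM in withdrawn mice (SD, n = 5), or -0.63 ± 0.20 (standard error) on the log2 scale. For Mrpl13, naïve mice had 69.2, 79.3 and 112 CPM (lowest, median, highest) and withdrawn mice 56.6, 35.6, 63.9, 53.5 and 61.6 CPM. Withdrawn mouse 2 was the lowest, and the other 4 withdrawn mice lay together under the naïve range. Its mean levels were 85.1 ± 16.8 CPM in naïve (SD, n = 6) against 54.2 ± 11.2 CPM in withdrawn mice (SD, n = 5), or -0.71 ± 0.21 (standard error) on the log2 scale.

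The other 4 genes for mitochondrial proteins had values between 14.3 and 53.2 CPM in every mouse. Qrsl1, a subunit of the enzyme that makes glutaminyl-tRNA in mitochondria, had 33.98 ± 8.43 CPM in naïve (SD, n = 6) against 21.8 ± 4.55 CPM in withdrawn mice (SD, n = 5). Coq6, a monooxygenase of coenzyme Q synthesis, had 38.05 ± 3.41 (SD, n = 6) against 27.4 ± 6.02 CPM (SD, n = 5). Timm10b, a chaperone of protein import into the inner membrane, had 35.4 ± 9.29 (SD, n = 6) against 24.02 ± 1.77 CPM (SD, n = 5). Chchd7, a small protein with paired cysteine motifs, had 41.5 ± 3.04 (SD, n = 6) against 27.6 ± 5.08 CPM (SD, n = 5). Their log2 fold changes were -0.70, -0.52, -0.63 and -0.65, and the value of Chchd7 was -0.94 without withdrawn mice 3, 4 and 5. Ciao1, which takes part in the assembly of iron-sulfur proteins in the cytosol, had 77.5 ± 12.5 CPM in naïve (SD, n = 6) against 56.6 ± 2.06 CPM in withdrawn mice (SD, n = 5), or -0.52 ± 0.16 (standard error) on the log2 scale, and its withdrawn mice differed by less than 6 CPM from each other.

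Among the genes for transcription and for other nuclear steps, Gtf2b (ENSMUSG00000028271, chr3:142765045-142783606, plus strand) encodes TFIIB, which brings RNA polymerase II to the promoter. Its naïve values were 79.5, 86.3 and 99.8 CPM (lowest, median, highest), and its withdrawn values 63.5, 59.7, 61.4, 71.3 and 74.2 CPM. Both groups were tight, with withdrawn mice 4 and 5 nearest to the naïve range. It averaged 87.8 ± 7.64 CPM in naïve (SD, n = 6) against 66.00 ± 6.38 CPM in withdrawn mice (SD, n = 5), or -0.48 ± 0.15 (standard error) on the log2 scale.

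Taf6 (ENSMUSG00000036980, chr5:138178617-138187451, minus strand) encodes a subunit of TFIID, the complex that recognises core promoters. Naïve mice had 33.9, 47.03 and 79.5 CPM (lowest, median, highest) and withdrawn mice 23.5, 19.7, 31.9, 31.1 and 25.7 CPM. Naïve mouse 5 was far above the others, and naïve mouse 4 lay near withdrawn mice 3 and 4. The group means were 49.5 ± 15.9 CPM in naïve (SD, n = 6) against 26.4 ± 5.18 CPM in withdrawn mice (SD, n = 5), or -0.98 ± 0.26 (standard error) on the log2 scale. Exons of Ap4m1 on the other strand cover 1185 of the 4476 exonic bases of Taf6, and whether counting used strand is not given in the sources used here.

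Cops7b (ENSMUSG00000026240, chr1:86582904-86609375, plus strand) encodes a subunit of the COP9 signalosome, which removes the NEDD8 modifier from cullin ubiquitin ligases. It had 27.9, 43.7 and 62.9 CPM as lowest, median and highest naïve values and 20.1, 12.1, 27.1, 21.8 and 25.5 CPM in withdrawn mice. Naïve mouse 2 lay next to withdrawn mouse 3, and withdrawn mouse 2 was the lowest. It averaged 44.4 ± 13.3 CPM in naïve (SD, n = 6) against 21.3 ± 5.88 CPM in withdrawn mice (SD, n = 5), or -1.12 ± 0.29 (standard error) on the log2 scale and -1.57 without withdrawn mice 3, 4 and 5.

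Rnaseh2a (ENSMUSG00000052926, chr8:84956610-84969767, minus strand) encodes the catalytic subunit of RNase H2, which removes RNA built into DNA. The naïve values were 23.9, 30.3 and 42.5 CPM (lowest, median, highest), and the withdrawn values 21.9, 6.55, 18.5, 18.4 and 13.98 CPM. Withdrawn mouse 2 was far below the other withdrawn mice, of which mouse 1 was nearest to the naïve range. Rnaseh2a averaged 31.3 ± 6.57 CPM in naïve (SD, n = 6) against 15.9 ± 5.92 CPM in withdrawn mice (SD, n = 5). The edgeR log2 fold change was -1.05 ± 0.32 (standard error). Of the 3509 exonic bases of Rnaseh2a, 339 are shared with Gm49661 on the same strand and 177 with Prdx2 on the other strand.

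Bub1b (ENSMUSG00000040084, chr2:118598211-118641591, plus strand) encodes BubR1, a kinase of the spindle checkpoint of dividing cells. Naïve mice had 3.36, 4.01 and 5.72 CPM (lowest, median, highest), from 47 to 73 counts. Withdrawn mice 1 to 5 had 1.17, 0.460, 0.225, 2.18 and 2.88 CPM, from 16, 4, 5, 16 and 41 counts. The naïve mice were tight at this low level, and the withdrawn mice ranged from mouse 3, near the floor, to mouse 5, close to the naïve range. It averaged 4.21 ± 0.903 CPM in naïve (SD, n = 6) against 1.38 ± 1.13 CPM in withdrawn mice (SD, n = 5), or -1.69 ± 0.73 (standard error) on the log2 scale and -2.45 without withdrawn mice 3, 4 and 5. Nop14, a factor of small ribosomal subunit assembly in the nucleolus, had 28.6 ± 5.43 (SD, n = 6) against 17.4 ± 2.80 CPM (SD, n = 5), or -0.78 ± 0.25 (standard error) on the log2 scale. Ccne1, which encodes cyclin E1, had 44.4 ± 9.64 (SD, n = 6) against 28.9 ± 4.28 CPM (SD, n = 5), or -0.68 ± 0.23 (standard error) on the log2 scale.

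Among the remaining protein-coding genes, Txndc9 (ENSMUSG00000058407, chr1:37985189-37997893, minus strand) encodes a thioredoxin-like protein that binds the cytosolic chaperonin. Naïve mice had 97.8, 103 and 121 CPM (lowest, median, highest), and withdrawn mice 63.3, 76.6, 92.3, 88.6 and 78.00 CPM. Withdrawn mouse 1 was the lowest, and mouse 3 was nearest to the naïve range. The averages were 107 ± 10.6 CPM in naïve (SD, n = 6) against 79.8 ± 11.4 CPM in withdrawn mice (SD, n = 5), or -0.50 ± 0.16 (standard error) on the log2 scale, and the log2 value was -0.75 without withdrawn mice 3, 4 and 5.

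Tmem192 (ENSMUSG00000025521, chr8:64947185-64969033, plus strand) encodes a membrane protein of lysosomes. Its naïve values were 30.9, 35.9 and 48.2 CPM (lowest, median, highest) and its withdrawn values 13.3, 29.1, 16.7, 19.9 and 22.3 CPM. Withdrawn mouse 2 was nearest to the naïve mice and withdrawn mouse 1 lowest. The group means were 36.9 ± 6.25 CPM in naïve (SD, n = 6) against 20.3 ± 5.98 CPM in withdrawn mice (SD, n = 5), or -0.94 ± 0.25 (standard error) on the log2 scale.

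Ccdc92 (ENSMUSG00000037979, chr5:124834418-124862424, minus strand) and Ccdc32 (ENSMUSG00000039983, chr2:119017779-119029393, minus strand) encode coiled-coil proteins. For Ccdc92, naïve mice had 134, 152 and 177 CPM (lowest, median, highest) and withdrawn mice 120.3, 128, 125, 87.2 and 131 CPM. Withdrawn mouse 4 was far below the other 4 withdrawn mice, which reached close to the naïve range. The averages were 152 ± 16.6 CPM in naïve (SD, n = 6) against 118 ± 17.8 CPM in withdrawn mice (SD, n = 5), or -0.42 ± 0.16 (standard error) on the log2 scale. For Ccdc32, naïve mice had 95.8, 105 and 130.0 CPM (lowest, median, highest) and withdrawn mice 84.5, 89.8, 95.2, 62.2 and 82.6 CPM. Again withdrawn mouse 4 was the lowest, while withdrawn mouse 3 lay less than 1 CPM under naïve mouse 2. The averages were 107 ± 12.1 CPM in naïve (SD, n = 6) against 82.8 ± 12.6 CPM in withdrawn mice (SD, n = 5), or -0.44 ± 0.17 (standard error) on the log2 scale.

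Erich1 (ENSMUSG00000051978, chr8:14027561-14090301, minus strand), a gene for a glutamate-rich protein, was among the most clearly separated genes. Naïve mice had 8.46, 9.24 and 13.4 CPM (lowest, median, highest), and withdrawn mice had 4.24, 3.10, 5.84, 3.40 and 4.85 CPM. No withdrawn mouse came near the naïve range, whose lowest value was 1.45 times the highest withdrawn value. It averaged 10.2 ± 2.17 CPM in naïve (SD, n = 6) against 4.29 ± 1.11 CPM in withdrawn mice (SD, n = 5), or -1.31 ± 0.43 (standard error) on the log2 scale. Fam169a had 81.4 ± 9.52 (SD, n = 6) against 53.2 ± 7.05 CPM (SD, n = 5), or -0.68 ± 0.17 (standard error) on the log2 scale, and exons of Nsa2 on the other strand cover 1590 of its 6082 exonic bases. ENSMUSG00000109554, which has no entry in the annotation used, had 5.17 ± 0.502 (SD, n = 6) against 3.34 ± 0.394 CPM (SD, n = 5), or -0.70 ± 0.48 (standard error) on the log2 scale.

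The 3 annotated genes that are not protein coding were all near the lower limit of the rule. The long intergenic RNA 2900072N19Rik (ENSMUSG00000087018, chr2:92054989-92059369, minus strand) had 2.38, 2.85 and 3.63 CPM (lowest, median, highest) in naïve mice and 1.68, 0.460, 1.75, 1.63 and 1.41 CPM in withdrawn mice, from 29 to 57 and from 4 to 39 counts. Its groups were clearly apart, with withdrawn mouse 2 lowest, and its means were 2.93 ± 0.431 CPM in naïve (SD, n = 6) against 1.39 ± 0.534 CPM in withdrawn mice (SD, n = 5), or -1.14 ± 0.62 (standard error) on the log2 scale. The processed pseudogene Gm35595 (ENSMUSG00000114571, chr14:62541380-62541575, minus strand), whose reads could be shared with a parent gene, had 1.77, 2.44 and 4.59 CPM (lowest, median, highest) and 1.68, 1.49, 1.62, 1.09 and 1.48 CPM. In it 3 naïve mice lay close to the withdrawn mice, and its means were 2.72 ± 1.10 CPM in naïve (SD, n = 6) against 1.47 ± 0.231 CPM in withdrawn mice (SD, n = 5), or -0.95 ± 0.62 (standard error) on the log2 scale. The long intergenic RNA Gm26803 (ENSMUSG00000097265, chr13:83723442-83729582, minus strand) had 1.03, 1.35 and 5.00 CPM (lowest, median, highest) and 0.146, 0.575, 0.809, 0.952 and 0.562 CPM, from 11 to 82 and from 2 to 18 counts. Naïve mice 6 and 1 stood above the other naïve mice, its means were 2.08 ± 1.55 CPM in naïve (SD, n = 6) against 0.609 ± 0.306 CPM in withdrawn mice (SD, n = 5), or -1.83 ± 0.78 (standard error) on the log2 scale, and the log2 value was -2.67 without withdrawn mice 3, 4 and 5.

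The space between the groups was small for many of the 33 genes. The lowest naïve value was less than 5% above the highest withdrawn value for 14 genes, and more than 25% above it for 3 (Erich1, Rasd1 and 2900072N19Rik). Just inside the rule were Unc5a (1.006 times), Ccdc32 (1.006) and Arhgdig (1.015), and just outside were Ubald1 (0.998), Resp18 (0.996) and Emc6 (0.994). At the limit on the level, Gm26803 (2.08 CPM) and Gm35595 (2.72 CPM) were inside, and Gm8330 (1.63 CPM) and Gm45187 (1.62 CPM), whose groups also did not overlap, were outside. The lowest withdrawn value of a gene belonged to withdrawn mouse 2 for 14 genes and to withdrawn mouse 4 for 10, the mice with the fewest counts, and to mice 1, 3 and 5 for 4, 3 and 2 genes. The highest withdrawn value belonged to withdrawn mouse 5 for 12 genes and to withdrawn mouse 3 for 11. For the lowest naïve value these were naïve mouse 4 for 11 and naïve mouse 2 for 9. For the highest naïve value they were naïve mouse 1 for 12 and naïve mouse 5 for 11. In naïve mouse 5, 15585 genes were detected, against 22551 to 31830 in each other mouse, and 5.77% of tallied reads fell on no annotated feature. Whether these library differences bear on the tallies was not tested.

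The set changed with the scaling of the counts. With TMM library sizes 39 genes met the rule, 19 of the 33 among them, with the TMMwsp variant of TMM 40 and 16, with DESeq2 size factors 34 and 25, and with all tallied reads as the library size 24 and 8. Under all 3 of TMM, TMMwsp and DESeq2 size factors 15 of the 33 genes met the rule, and under all 4 other scalings 8 did, namely Chchd7, Tmem192, Rasd1, Nop14, Erich1, Cntnap5b, Bub1b and ENSMUSG00000109554. Enc1, Arhgdig, Unc5a, Ccdc32, Cops7b and Ecel1 met it under none of the 4. The genes 1500004A13Rik and Vamp1, of which Vamp1 encodes a synaptic vesicle protein, met it under TMM, TMMwsp and DESeq2 size factors but not under the rule's own scaling. Their mean levels in naïve and withdrawn mice were 65.8 and 50.01 CPM for 1500004A13Rik and 45.5 and 28.2 CPM for Vamp1. Leaving out 1 mouse at a time gave 49 to 82 genes, with the highest number without withdrawn mouse 5 and 70 without naïve mouse 5, and 531 genes met the rule without withdrawn mice 3, 4 and 5, all 33 among them. With fewer mice the rule is easier to meet. Without these 3 mice the log2 fold change moved by more than its standard error for 14 of the 33 genes, each time further below 0. Among those whose value is not given above, Qrsl1 was at -1.03, Nop14 at -1.05, Taf6 at -1.32, Mrpl13 at -0.997, Mrpl30 at -0.83, Fam169a at -0.90 and Gtf2b at -0.63.

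**Figure D4:**
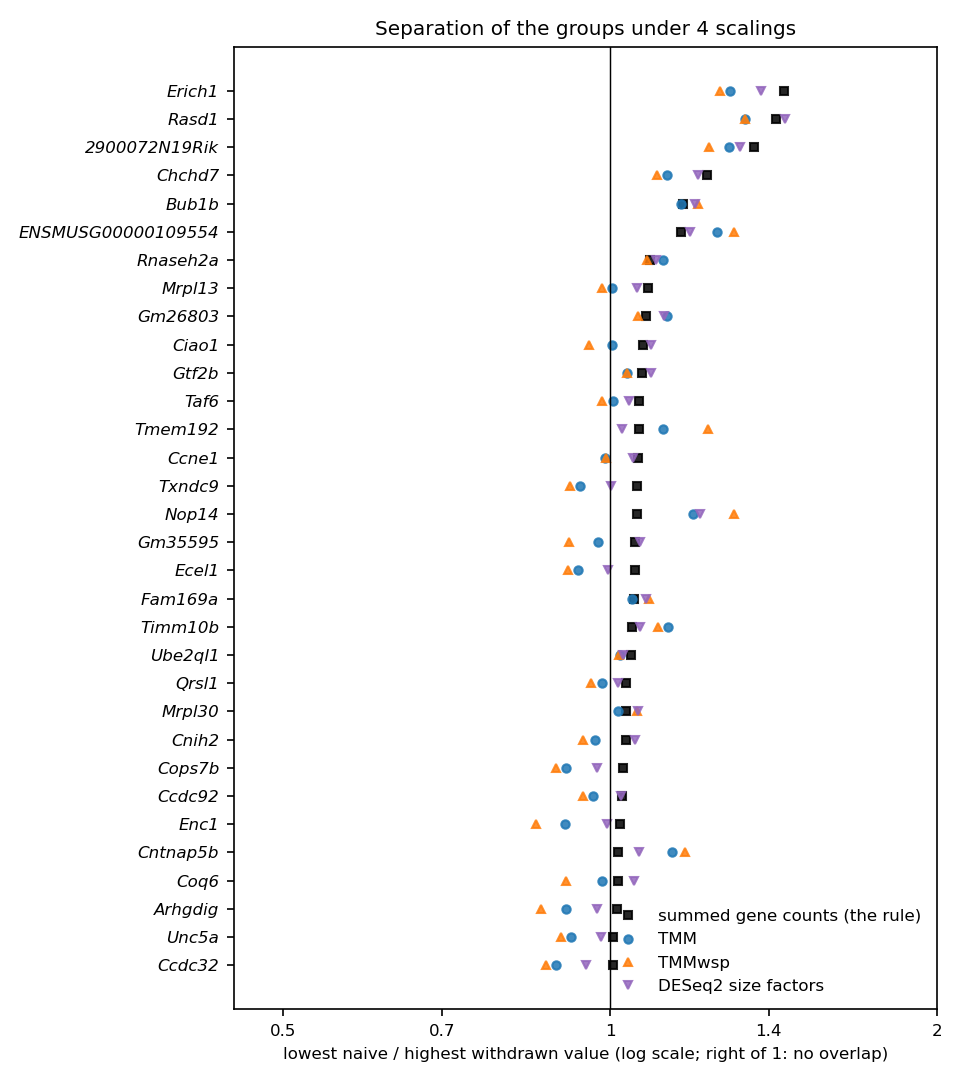
Lowest naïve value over highest withdrawn value of each of 32 of the 33 genes (horizontal log axis, to the right of 1 the groups do not overlap), with 1 row per gene. Black squares are CPM on summed gene counts, which chose the genes and so all lie right of 1, and blue circles, orange triangles and purple triangles are TMM, TMMwsp and DESeq2 size factors, under which 19, 16 and 25 of the 33 genes keep the groups apart.

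The genes that start head to head with a gene of the set were not used by the rule and were tested in the edgeR fit over all 17093 genes. Of the 13, Mtbp, which starts within Mrpl13, was below the filter on low counts (0.690 and 1.08 CPM in naïve and withdrawn mice). Of the other 12, 8 had a log2 fold change below 0 and 4 above, none had an unadjusted p under 0.05, and none was called (the lowest Benjamini-Hochberg adjusted p by the edgeR quasi-likelihood test was 0.693). DESeq2's Wald test also called none of the 12, with 0 lower and 1 higher at an unadjusted p under 0.05. Of all genes with a naïve mean of at least 2 CPM, 54.5% had an edgeR log2 fold change below 0. Pairs of CPM given for these neighbours are the means of naïve and of withdrawn mice. The pair with both genes closest in value was Coq6 and Fam161b (-0.52 and -0.48, standard errors 0.22 and 0.40), which share 128 exonic bases on opposite strands. Eif5b, a translation initiation factor that starts 117 bases from Txndc9, had 102 and 82.7 CPM and a log2 fold change of -0.36 (adjusted p = 0.693 by the edgeR quasi-likelihood test, standard error 0.17). Tmem127, which starts 92 bases from Ciao1, had 86.0 and 101 CPM and a log2 fold change of 0.18 (standard error 0.23), where Ciao1 had -0.52. Cnpy4, which starts 34 bases from Taf6, had 15.7 and 22.0 CPM and a log2 fold change of 0.39 (standard error 0.41), where Taf6 had -0.98. Pde6d, 275 bases from Cops7b, had 74.3 and 74.5 CPM and a log2 fold change of -0.08 (standard error 0.29), where Cops7b had -1.12. Grk4, 231 bases from Nop14, had 1.90 and 7.48 CPM and a log2 fold change of 1.88 (standard error 0.92). The difference within a pair was not tested.

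**Figure D5:**
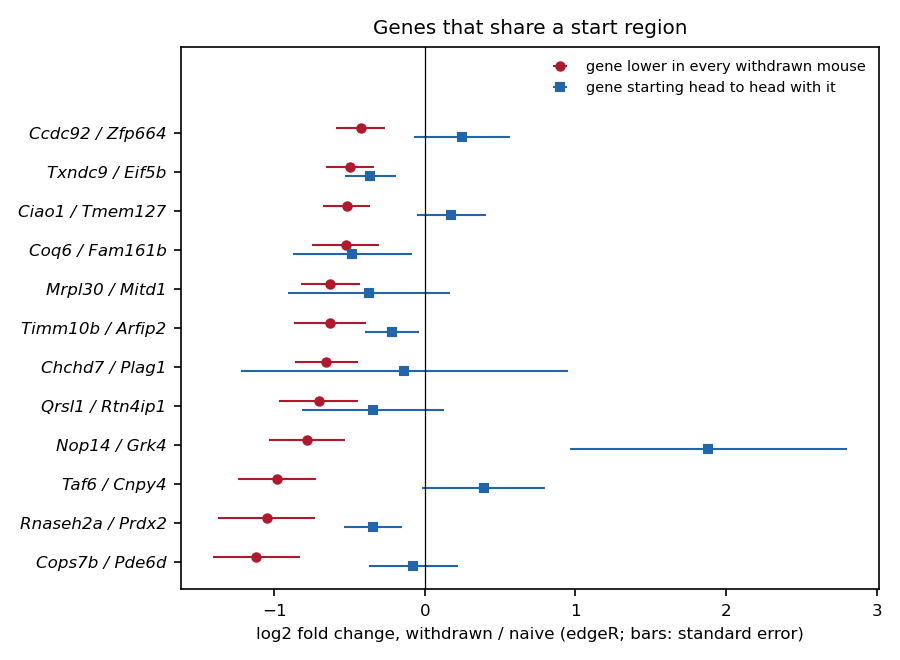
edgeR log2 fold change of withdrawn over naïve mice (horizontal axis) of the 12 genes of the set with a tested head-to-head neighbour (red circles) and of that neighbour (blue squares), with 1 row per pair and bars for the standard error. The red values were chosen by the rule to lie below 0, and the blue values, which were not, lie on both sides of 0, with 8 below and 4 above.

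In position, the 32 annotated genes lay on 15 chromosomes, with 5 each on chromosomes 1 and 13. Their median span was 12150 bases and their median summed exon length 3363 bases, against 24226 and 4486 bases over the annotated genes with a naïve mean of at least 2 CPM. Of the 496 pairs among them, 4 started within 1 Mb of each other on the same chromosome (0.807%, against 0.165% of the pairs of all such genes). These were Mrpl30 with Txndc9 (86654 bases between them), Fam169a with Enc1 (110092 bases), Bub1b with Ccdc32 (376188 bases) and Cops7b with Ecel1 (538280 bases). No other gene at that level lay between Mrpl30 and Txndc9. Between Cops7b and Ecel1 lay Nppc and Dis3l2, with log2 fold changes of -0.78 and -0.11. Nppc, which encodes C-type natriuretic peptide, had 41.0 and 25.1 CPM, an unadjusted p of 0.0317 and an adjusted p of 0.622 by the edgeR quasi-likelihood test. Of the 8 genes between Bub1b and Ccdc32, 6 had a log2 fold change below 0.

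Relatives of the set in the same complex or family were listed after the set was known, and 74 of them outside the set passed the filter on low counts. edgeR's quasi-likelihood test called none of the 74, with 0 lower and 2 higher (Arhgdib and Cdk2) at an unadjusted p under 0.05, and DESeq2's Wald test, with the same 0 and 2 at that level, called 1, Cdk2, as higher. Of the 74, 50 had a log2 fold change below 0 and 24 above (47 and 27 with DESeq2 size factors). Over all genes tested 48.2% lay below 0, and 54.5% of those with a naïve mean of at least 2 CPM. By edgeR's quasi-likelihood test 2.22% of all genes were lower and 5% higher at an unadjusted p under 0.05. DESeq2's Wald test called 0.0915% of all genes lower and 1.57% higher. The difference of the relatives from these shares was not tested.

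Of the mitochondrial ribosome, 79 genes were tested, and 77 of these were not in the set. Among the 77, 67 had a log2 fold change below 0 and 10 above (66 and 11 with DESeq2 size factors), the median was -0.27, 7 had an unadjusted p under 0.05 in the lower direction and 0 in the higher, and none was called by edgeR's quasi-likelihood test or DESeq2's Wald test. Over all genes tested 8241 of 17093 lay below 0 and the median was 0.02. Respiratory complex I was taken as the genes whose symbol starts with Nduf, none of them in the set. Of these, 46 of 49 had a log2 fold change below 0 under TMM, TMMwsp and DESeq2 size factors. Their median was -0.30 under TMM. By edgeR's quasi-likelihood test 4 had an unadjusted p under 0.05 in the lower direction, and neither edgeR nor DESeq2 called any. The small import chaperones beside Timm10b (Timm8a1, Timm8b, Timm9, Timm10 and Timm13) had log2 fold changes between -0.36 and -0.87, all below 0, and the lowest adjusted p was 0.754 (edgeR's quasi-likelihood test). For the partners of Qrsl1 in its enzyme, Gatb and Gatc, the values were -0.49 and -0.25. Of the 12 other genes of coenzyme Q synthesis 7 lay below 0 and 5 above, between -0.36 and 0.24, and with DESeq2 size factors 5 lay below and 7 above.

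Among the neuronal relatives, Cnih3 had 260.2 ± 50.3 CPM in naïve (SD, n = 6) against 273 ± 80.4 CPM in withdrawn mice (SD, n = 5). The edgeR log2 fold change of Cnih3 was 0.01, and Cnih1 had one of 0.03. Unc5b, at 1.53 and 0.480 CPM, had a log2 fold change of -1.76 (standard error 1.24), and Unc5c and Unc5d had 0.46 (standard error 0.27) and 0.03 (standard error 0.82), against -0.74 for Unc5a. Cntnap5a and Cntnap5c had 0.23 (standard error 0.38) and 0.12 (standard error 0.83), against -1.33 for Cntnap5b. Rasd2, which encodes the striatal GTPase Rhes, had 76.1 and 58.4 CPM and a log2 fold change of -0.45 (adjusted p = 0.793 by the edgeR quasi-likelihood test, standard error 0.26). Of the relatives of Arhgdig, Arhgdia had -0.20 (standard error 0.18). Arhgdib, which is known from blood cells, had 3.88 ± 4.38 CPM in naïve (SD, n = 6) against 44.9 ± 35.0 CPM in withdrawn mice (SD, n = 5). The edgeR log2 fold change of Arhgdib was 3.45 (adjusted p = 0.451 by the edgeR quasi-likelihood test, standard error 1.19).

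Among the nuclear relatives, the 9 other subunits of the COP9 signalosome had log2 fold changes between -0.04 and -0.32, all below 0, and Cops7a, the paralog of Cops7b, had 290.5 ± 79.4 CPM in naïve (SD, n = 6) against 262 ± 22.6 CPM in withdrawn mice (SD, n = 5). Of the 12 other TFIID subunits tested, 11 lay below 0 and Taf2 was at 0.43 (standard error 0.27), with the lowest adjusted p at 0.749 (edgeR's quasi-likelihood test). The other RNase H2 subunits, Rnaseh2b and Rnaseh2c, had 0.27 and -0.45. Of the spindle checkpoint beside Bub1b, Bub1, Cdc20 and Ttk were below the filter on low counts, and Bub3, Mad1l1 and Mad2l1 had 0.07, 0.33 and -0.41. Ccne2 had 0.33, and Cdk2, the kinase partner of cyclin E, had 0.864 and 6.26 CPM and a log2 fold change of 2.79 (adjusted p = 0.416 by the edgeR quasi-likelihood test, standard error 0.93).

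Other lists hold no gene of the set and are given beside it. Of the immediate early genes 13 of 19 had a log2 fold change below 0, of the G protein-coupled receptors of the cortex 23 of 44, of the ionotropic glutamate and GABA receptors 18 of 25, of the potassium channels 28 of 39, and of the synaptic vesicle genes 21 of 28. At an unadjusted p under 0.05 the lower and higher counts were 2 and 3, 4 and 1, 1 and 0, 2 and 1, and 5 and 0, and edgeR's quasi-likelihood test called none of these genes. Over all genes tested 48.2% lay below 0, and 54.5% of those with a naïve mean of at least 2 CPM. At an unadjusted p under 0.05 by that test 2.22% of all genes were lower and 5% higher. DESeq2's Wald test called 2 genes of these lists, Mas1 and Vamp1, both lower. With DESeq2 size factors 22 of the 44 G protein-coupled receptors lay below 0, and 12, 18, 27 and 19 genes of the other lists in the order given. Families named by symbol with no gene of the set lay on either side. A symbol alone can take in genes that are not part of the complex or enzyme class it stands for. Below 0 were 174 of 413 zinc finger genes, 108 of 272 solute carriers, 22 of 65 protocadherins and 97 of 205 ubiquitin ligase genes. Also below 0 were 76 of 125 genes whose symbol starts with Rpl or Rps and 36 of 66 whose symbol starts with Rab. With DESeq2 size factors these counts were 160, 100, 22, 88, 70 and 35. At an unadjusted p under 0.05 by edgeR's quasi-likelihood test 5 solute carriers were lower and 30 higher. That test called no gene of these 6 families. DESeq2's Wald test called 17 of the 272 solute carriers, 2 of the 66 Rab genes (Rab3il1 and Rab7b) and 1 of the 205 ubiquitin ligase genes (Fbxl7). It called none of the 413 zinc finger genes, the 65 protocadherins or the 125 Rpl and Rps genes. Over all genes it called 0.0915% lower and 1.57% higher. Among families that hold genes of the set, 45 of 104 other coiled-coil (Ccdc) genes, 111 of 192 other transmembrane (Tmem) genes and 1329 of 3170 other predicted genes and cDNA clones lay below 0.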

How the data were processed

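RNA from fluorescence-sorted mPFC CRF1+ neurons of 11 mice was analysed from the deposited counts per Ensembl gene. The authors made cDNA with the SMARTseq HT kit, used cutadapt to trim reads, STAR to map them to GRCm38 and HTSeq to count them, and deposited whole-number counts, neither normalized nor pooled. Rows that name no gene were left out of library sizes, and CPM is the count over the summed gene counts of the mouse. All such rows together (reads on no feature, ambiguous reads and the other classes that HTSeq tallies) held 18.9% to 58.0% of the tallied reads of a mouse.

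Genes were chosen by complete separation of the groups. They are part of the fits across all genes, and nothing is read from their p-values. Chosen genes, gene lists, relatives and neighbours were selected with earlier results of these data known. Of the 33 chosen genes 1 is not reported here. Its relatives are left out of the counts of relatives, and some neighbours are not reported. The other 32 are named, and the naïve range and median and the value in each withdrawn mouse are given for those among the 12 with the highest naïve mean and the 12 with the most negative log2 fold change. All genes were compared with edgeR 4.0.16 in R 4.3.3 (TMM, filterByExpr with a minimum count of 10 and a minimum total of 15, quasi-likelihood test, Benjamini-Hochberg adjustment over 17093 genes), and with DESeq2 1.42.0 as an alternative, the tool the authors used. Calls needed both an adjusted p up to 0.05 and a log2 fold change larger in size than 0.6. Single values per mouse were tested by exact two-sided permutation. The edgeR script was tested on simulated data.

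Groups follow the treatment recorded for each sample. Mice of both groups that have a replicate number in common are different animals, so no replicate block was used. Replicate libraries differed by far more than sampling noise (chi-square per degree of freedom of at least 25.6 over 25 pairs). Depth ranged from 7351567 to 22244869 counts on genes. Reads come from amplified cDNA, so floors cover counting error only. Coordinates and exons come from GENCODE M21 and promoter sequences from RefSeq, both on GRCm38. Overlapping genes are uncertain, since the strand setting of HTSeq is not given in the sources used here. Besides those named above, exonic bases are shared with a gene on the other strand in Mrpl13 (330 of 7936, Mtbp) and Timm10b (277 of 3582, Arfip2). The same holds for Tmem192 (149 of 1750, Gm45242), Nop14 (144 of 2730, Gm15522) and Arhgdig (138 of 1566, Rgs11), among others. Timm10b also shares 376 with Gm45799 on its own strand. The alternatives were other scalings, level minimums, low-count filters, tests, covariates, a replicate block and mice left out.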

Additional observations from a re-analysis of the deposited data

Results flagged for a closer look

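In 9 of 94 sets of values (the CPM of each of 32 of the 33 genes, and the library measures, in the mice of 1 group), 1 mouse stood far from the others of its group by Dixon's criterion at the 95% level. For independent sets of unchosen values about 1 in 20, or 4.7 of 94, would be flagged by chance. The rule chose the genes by these same CPM values and the sets share mice, so nothing is read from the count of 9. Naïve mouse 1 was far above the other naïve mice for Mrpl30 (213 CPM), Timm10b (53.2 CPM) and Qrsl1 (49.9 CPM). Naïve mouse 5 was far above the others for Taf6 (79.5 CPM) and Ecel1 (16.0 CPM), and far below them in the mean log2 CPM of the oligodendrocyte precursor markers (-2.79). Withdrawn mouse 2 was far below the other withdrawn mice for Chchd7 (18.9 CPM) and 2900072N19Rik (0.460 CPM). Withdrawn mouse 4 was far below them for Ccdc92 (87.2 CPM). The cause was not tested.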

How the results depend on the processing

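The choice of genes by complete separation of these mice fixes the direction of their log2 fold changes, so its being below 0 in all 622 values under the alternatives is no sign of stability. The separation itself was kept by 19, 16, 25 and 8 of the 33 genes under TMM, TMMwsp, DESeq2 size factors and all tallied reads. Of the 622 values, 617 lay within 1 SD of the reported value, where the SD is that of the gene's log2 CPM among mice within groups. The 5 that lay further away were those of Ecel1, Enc1, Chchd7, Txndc9 and Gm26803 without withdrawn mice 3, 4 and 5, given in the report. Without these 3 mice the median over the 33 genes was -0.91, in place of -0.71, 531 genes met the rule, and edgeR called 0 genes higher. The number of genes that met the rule was 49 to 82 when 1 mouse was left out, and 33 with all mice. The edgeR test called 0 genes lower and 1 higher. These counts were 20 and 342 with DESeq2's Wald test, 1 and 136 with no filter on low counts, 1 and 29 with at least 10 counts in every mouse, and 1 and 25 with genes detected as a covariate. They were 0 to 1 and 0 to 192 when 1 mouse was left out, with the highest values without withdrawn mouse 2. With the replicate block 0 genes were called lower and 0 higher. Mice with the same number did not deviate together (correlations of -0.01, -0.06, -0.20, 0.04 and 0.18), so the numbers do not pair them. The median log2 fold change of all genes tested was 0.02, and it was 0.25 with DESeq2's Wald test over all genes and 0.17 with no filter. The cause of these changes was not tested, beyond the smaller number of mice or the other set of genes in each alternative. Depth limits the genes at a few CPM, where 3 counts equal up to 0.408 CPM.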
